A study of Caenorhabditis elegans with 4 samples.

Results

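Transcripts of germ granules, of oocytes and of the eggshell were followed in whole wild-type (N2) Caenorhabditis elegans given the antibiotic rifampicin (RIF) or only its solvent, DMSO. The genes were taken by symbol. All genes named pgl-, glh-, puf-, oma-, gld-, mex-, cpg- or egg- were included, and so were ifet-1, rme-2, cbd-1, pos-1, pie-1, nos-2, deps-1, car-1, cgh-1, perm-2, perm-4 and chs-1. This rule found 53 genes among the 17118 genes that have a probe set of their own on the Affymetrix array. They are read by 84 such probe sets, of which the one that read highest on average over the 4 arrays stands for its gene. RNA came from worms on day 8 of adulthood, with 2 arrays for DMSO and 2 for RIF, labelled as biological replicates. From the young adult stage on, all worms were kept in liquid medium on heat-killed OP50-AMP bacteria with carbenicillin, amphotericin B and FuDr, and were fed again on day 5. FuDr is an inhibitor of DNA synthesis that was used to stop egg laying (0.6 mM in the labels), so the germ line of both groups had been exposed to it. The labels of the arrays give no dose of RIF. Their tissue field speaks of control RNAi in the DMSO worms and of idr-1 RNAi in the RIF worms. Groups were taken from titles and design, which speak of DMSO and RIF as does the paper.

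The germ line of the hermaphrodite makes sperm first and oocytes afterwards. Germ granules, also called P granules, are bodies of RNA and protein around the nuclei of germ cells, built on the PGL proteins and on the Vasa-related GLH helicases. Because growing oocytes store mRNAs for use in the embryo, much of their regulation runs through RNA-binding proteins that repress, release or lengthen the tails of maternal mRNAs. At fertilization the eggshell is laid down in layers, from a vitelline layer on the outside through chitin to chondroitin proteoglycans on the inside.

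Each value is a log2 probe set value as deposited. The 8 probe sets for yeast and bacterial transcripts that are foreign to the worm read 0.44 to 1.62, and of the 53 genes 48 lay above this range in at least 1 group. Of the gene lists for other tissues, 14 of 15 muscle genes, 17 of 18 neuronal genes and 12 of 12 intestinal genes did so too. The arrays had similar medians over all probe sets, from 1.82 to 1.90. DMSO replicate 2 stood apart in the 8 transcripts that check RNA quality, where its 5′ minus 3′ difference had a median of -2.16, against -0.99 to -1.28 on the other arrays; a lower value is seen in more degraded RNA. In RNA from whole worms, fewer germ cells and less RNA per germ cell cannot be told apart.

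On RIF treatment the genes lay lower as a group, by small amounts. The difference between RIF and DMSO was below 0 for 46 of the 53 genes and had a median of -0.40 on the log2 scale, or 1.32-fold lower. Over all 17118 genes the median was 0.03, with 44.3% of genes below 0, and over the 9836 genes above the foreign controls it was -0.01, with 50.5% below 0. Both RIF arrays read below both DMSO arrays for 30 of the 53 genes. The same held for 16.0% of all genes and 21.6% of those above the controls. Both RIF arrays read above both DMSO arrays for only 4 of the 53 genes, namely cpg-8, cpg-23, perm-4 and puf-12, while 22.9% of all genes and 22.2% of those above the controls did so. Genes expressed in the same cells are not independent of each other, and no test was made over these counts.

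**Figure D1:**
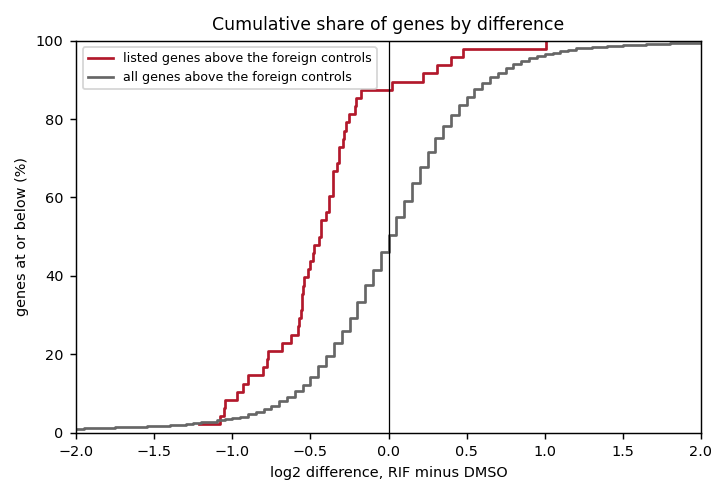
Cumulative share of genes (y axis, percent) by the log2 difference between RIF and DMSO (x axis), for the 48 listed genes above the foreign controls (red) and for all 9836 genes above them (grey). The red line has reached 87.5% at 0, where the grey line stands at 50.5%.

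For single genes, a change was called where the means differed by 2-fold or more with an unadjusted p under 0.05, the study's threshold, with limma as the test. It was passed by 3 of the 53 genes, glh-4, ifet-1 and pgl-2, which fell. At this threshold 1.55% of all genes, or 2.7% of those above the controls, were called lower and 1.27% of all genes higher. None of the 53 was called higher, although limma with a trended and robust prior called cpg-8. An unadjusted p under 0.05 was reached by 8 genes, or 15.1% of the 53 and 16.7% of the 48 above the controls, against 8.85% of all genes and 14.6% of those above the controls, so that their share was near that of other measured genes. All 8 were lower with RIF, where 4.46% of all genes and 7.67% of those above the controls had such a p on the lower side. The 8 genes were glh-4, ifet-1, pgl-2, pgl-3, cgh-1, chs-1, cpg-4 and nos-2. The methods' t-test called no gene and gave 2 with an unadjusted p under 0.05. None of the 8 was among these 2, as the t-test gave them an unadjusted p of 0.060 (nos-2) to 0.155 (glh-4). The 2 included perm-2 (unadjusted p = 0.0293 from the t-test, 0.199 from limma). No gene passed an adjusted p under 0.05 (Benjamini-Hochberg over all 22548 probe sets), and 4 of all 17118 genes did. With 2 arrays against 2, an exact two-sided permutation test of a single gene cannot give a p below 0.333. The standard error of a difference ran from 0.14 to 0.59 with a median of 0.27, and the 95% interval of a typical gene reached 0.73 to each side, so a difference of 1.32-fold lies within it.

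**Figure D2:**
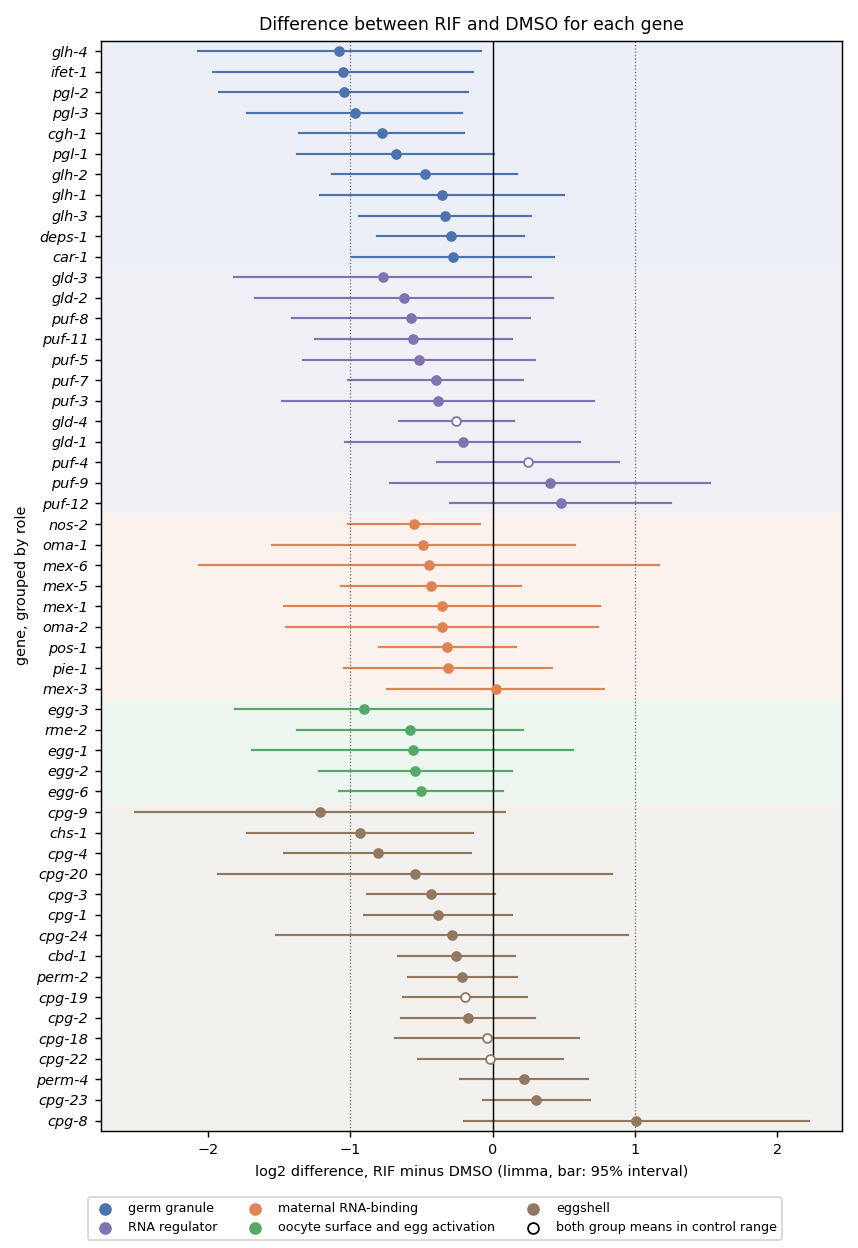
Log2 difference between RIF and DMSO (x axis) for each of the 53 genes (y axis), grouped by role, with 95% intervals from limma as bars, dotted lines at a 2-fold difference, and open points for genes with both group means in the range of the foreign controls. Intervals exclude 0 for 8 genes, all on the lower side, and 5 of them belong to germ granules; among genes above the controls 14.6% have such an interval, 7.67% on the lower side.

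The genes of germ granules were the lowest group. All 11 had values below 0, with a median of -0.68, and 3 of them fell. For glh-4, which encodes a Vasa-related RNA helicase, the arrays read 4.29 and 4.33 with DMSO and 2.75 and 3.71 with RIF. Both RIF arrays were lower, RIF replicate 1 by far the more (log2 difference -1.08, standard error 0.36, adjusted p = 0.565 from limma). The value was -0.60 without RIF replicate 1, and the call was also lost without either DMSO array (-1.09 and -1.06), where fewer degrees of freedom remain. Its only probe set is of a kind that can share probes with other transcripts. For ifet-1, the worm's eIF4E transporter and a repressor of translation in the germ line, the values were 5.55 and 6.21 with DMSO and 4.55 and 5.11 with RIF. The groups did not overlap (log2 difference -1.05, standard error 0.33, adjusted p = 0.553 from limma). Its second probe set read 2.36 and 2.17 with DMSO and 1.92 and 2.01 with RIF, a difference of -0.30 only, and with the mean of its probe sets ifet-1 was not called (-0.68). Leaving out DMSO replicate 2 (-0.72) or either RIF array (-0.77 and -1.33) also ended its call, and so did quantile normalization (-0.97). For pgl-2, which encodes a PGL protein, the arrays read 3.94 and 3.28 with DMSO and 2.32 and 2.81 with RIF. Here too the groups did not overlap (log2 difference -1.045, standard error 0.32, adjusted p = 0.537 from limma). The call of pgl-2 was lost when DMSO replicate 1 (-0.71) or either RIF array (-0.80 and -1.29) was left out. With the replicate number as a block it missed the threshold as well (unadjusted p = 0.060 from limma), and cpg-9 passed it instead.

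The other PGL genes behaved alike in sign. The scaffold gene pgl-3 read 5.51 and 5.42 with DMSO and 4.16 and 4.84 with RIF. Its difference, -0.97 (standard error 0.28), lay just short of 2-fold, and it was called without RIF replicate 2 (-1.31). The related pgl-1 read 7.22 and 6.75 with DMSO and 6.11 and 6.49 with RIF, again without overlap (-0.68, interval -1.37 to 0.01). Next to them, cgh-1, a DEAD-box helicase that protects stored mRNAs, read 6.72 and 6.97 with DMSO and 5.87 and 6.26 with RIF (-0.78, standard error 0.21). Its second probe set gave 5.55 on DMSO replicate 1 and 3.35 to 3.53 on all 3 others, so that there the difference of -1.04 came from 1 array. The remaining helicases glh-2 (-0.48), glh-1 (-0.36) and glh-3 (-0.33) and the P granule component deps-1 (-0.29) had smaller values, whose intervals included 0. The smallest difference in the group was that of car-1, an Sm-domain protein that works with CGH-1, with 7.15 and 7.71 in DMSO and 7.004 and 7.303 in RIF (-0.28). However, its dimmer probe set with shared probes read 3.94 and 4.24 with DMSO and 2.04 and 3.16 with RIF and would pass the threshold (-1.49, unadjusted p = 0.0236 from limma). Thus the size of the difference for car-1 depends on which probe set is read.

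**Figure D3:**
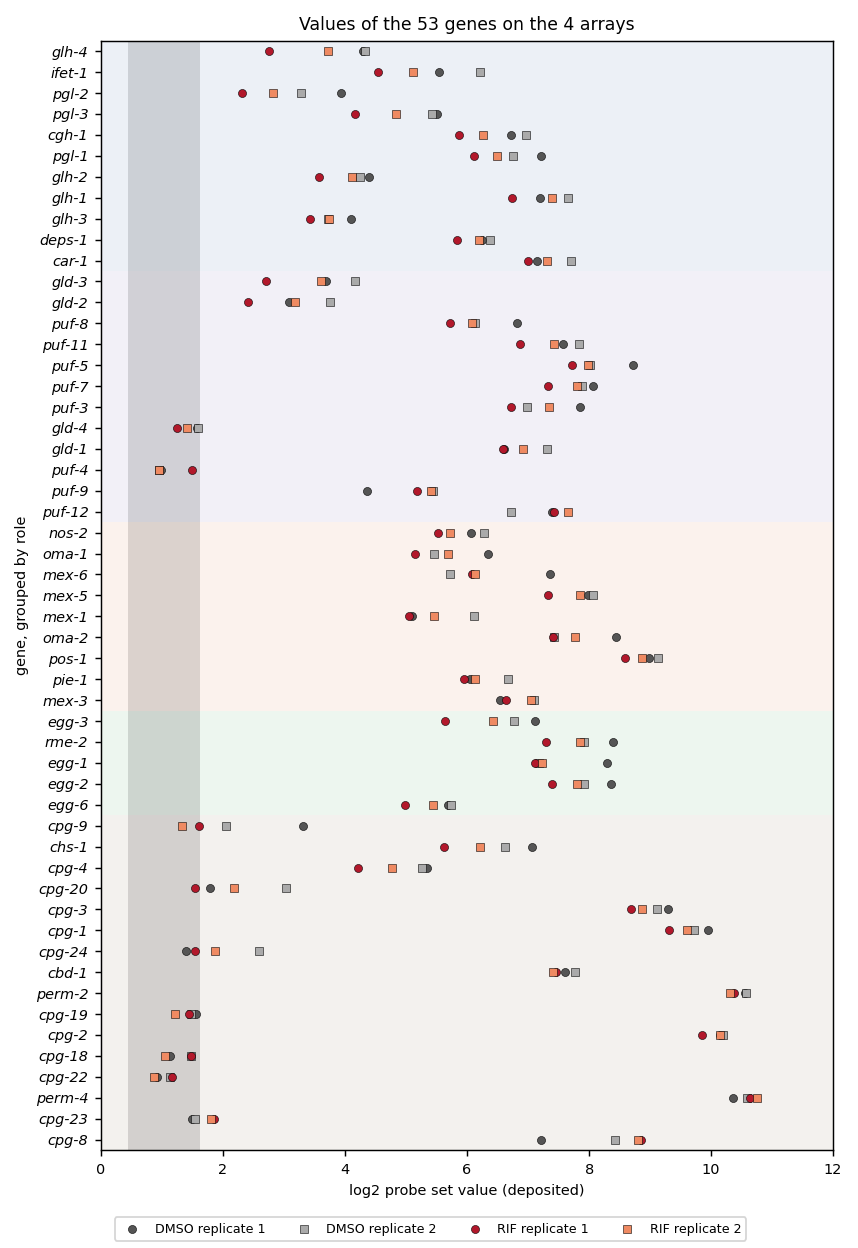
Deposited log2 values (x axis) of the 53 genes (y axis) on each DMSO array (dark and light grey) and each RIF array (red and orange), with the range of the foreign controls, 0.44 to 1.62, as a vertical band. RIF replicate 1 is the lowest of the 4 arrays for 38 of the 53 genes, and cpg-8 at the bottom has its lowest value on DMSO replicate 1.

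Regulators of mRNA in the dividing and meiotic germ line showed the same tendency with more spread. They are the gld- genes and the Pumilio family (puf-), whose proteins bind the 3′ ends of mRNAs. Of these 12 genes, 9 had values below 0 (median -0.39), none was called and none had an unadjusted p under 0.05 in limma. The lowest was gld-3, a KH-domain partner of the poly(A) polymerase GLD-2, with 3.68 and 4.17 in DMSO and 2.71 and 3.60 in RIF (-0.77, interval -1.81 to 0.27). It was called without RIF replicate 2 (-1.22), as RIF replicate 1 held the low value. The polymerase gene gld-2 itself read 3.07 and 3.75 with DMSO and 2.41 and 3.17 with RIF (-0.62), with the groups overlapping. Its other 4 probe sets gave -0.30 to 0.11, and 3 of them lay within the control range. The translational repressor gld-1, needed for entry into oogenesis, had -0.21 with an interval of -1.04 to 0.62. The second poly(A) polymerase, gld-4, stayed within the control range in both groups.

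Among the Pumilio genes, those that act in oocytes all had values below 0. The arrays read 8.72 and 8.01 with DMSO against 7.72 and 7.97 with RIF for puf-5 (-0.52) and 8.06 and 7.88 against 7.33 and 7.81 for puf-7 (-0.40). The close paralogs puf-3 and puf-11 had -0.38 and -0.56, the latter from 7.57 and 7.84 with DMSO to 6.87 and 7.42 with RIF without overlap. In puf-3 the DMSO arrays stood 0.88 apart, which is more than the difference between the groups. The probe sets of puf-3, puf-5, puf-7 and puf-8 are of a kind that can share probes with other transcripts, so their values may not be separate readings. For puf-7, 2 probe sets that name it jointly with puf-6, or with puf-6 and puf-10, gave -0.25 and -0.39. The germ-line stem cell regulator puf-8 lay at a similar level, with -0.57. Against this, 3 family members had values above 0: puf-12 at 0.48, with 7.40 and 6.73 in DMSO and 7.43 and 7.65 in RIF, puf-9 at 0.40 and puf-4 at 0.25. The last lay within the control range. In puf-9, known for its part in the development of the hypodermis rather than the germ line, the second probe set gave -0.45, so that its direction was not settled.

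Maternal RNA-binding proteins, mostly of the CCCH zinc finger type, are translated in oocytes and early embryos and set up cell fates there. Of 9 genes, 8 had values below 0, with a median of -0.35. None was called, and 1 had an unadjusted p under 0.05 in limma. This was nos-2, a Nanos relative required in primordial germ cells, which read 6.07 and 6.27 with DMSO and 5.52 and 5.72 with RIF. The replicates lay close to each other in both groups and did not overlap (-0.55, standard error 0.17, unadjusted p = 0.0290 and adjusted p = 0.536 from limma), and a probe set that it shares with another gene gave -0.41. For pos-1, needed for the fate of posterior cells, the arrays read 8.98 and 9.12 with DMSO and 8.59 and 8.87 with RIF (-0.32), while pie-1, which holds back transcription in the germ line of the embryo, had -0.31 with overlapping groups. At the other end stood mex-3, a KH-domain protein that patterns the early embryo, with 6.55 and 7.10 in DMSO and 6.64 and 7.05 in RIF. Its 2 probe sets gave 0.02 and -0.01 and intervals wide enough for a 1.5-fold change either way.

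The paralogous oocyte maturation genes oma-1 and oma-2, and likewise mex-5 and mex-6, which polarize the zygote, were hard to compare because DMSO replicate 1 stood alone in several of them. The arrays read 6.35 and 5.46 with DMSO against 5.14 and 5.69 with RIF for oma-1, and 8.44 and 7.43 against 7.40 and 7.76 for oma-2. With such a gap between the controls, differences of -0.49 and -0.35 were within the replicate spread. The second probe set of oma-2 gave closer controls, 5.78 and 6.19, and 5.08 and 5.43 with RIF (-0.73, unadjusted p = 0.0333 from limma). In the same way mex-6 had 7.37 and 5.73 with DMSO and 6.07 and 6.13 with RIF (-0.45), and on its second probe set 6.29 and 6.50 against 5.95 and 6.15 (-0.35). Without DMSO replicate 2, mex-6 would be called lower (-1.26), and without DMSO replicate 1 its direction turned (0.37). The partner mex-5 read 7.97 and 8.06 with DMSO and 7.32 and 7.84 with RIF, without overlap (-0.44), and mex-1 overlapped (-0.35).

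The group for the oocyte surface and egg activation held 5 genes, with egg-6 counted by its prefix alone. All 5 had values below 0 (median -0.56), yet none was called or had an unadjusted p under 0.05 in limma. Both RIF arrays read below both DMSO arrays for 4 of the 5, against 16.0% of all genes and 21.6% of those above the controls. The receptor gene rme-2, through which oocytes take up yolk, read 8.38 and 7.92 with DMSO and 7.29 and 7.85 with RIF (-0.58, interval -1.38 to 0.21). Its ligands, the vitellogenins, are made in the intestine. Of 5 vitellogenin genes measured, 3 fell, with the lowest difference in vit-1 (-1.93). For egg-3, a phosphatase-like protein that organizes the oocyte cortex at fertilization, the arrays read 7.11 and 6.77 with DMSO and 5.64 and 6.43 with RIF (-0.90, interval -1.81 to 0.00), and it was called without RIF replicate 2 (-1.297). The paralogs egg-1 and egg-2, LDL receptor-like proteins of the oocyte surface, had almost equal differences of -0.56 and -0.54. The DMSO values were nonetheless unlike, 8.29 and 7.18 for egg-1 and 8.35 and 7.92 for egg-2, and egg-1 overlapped with RIF (7.11 and 7.23) where egg-2 did not (7.39 and 7.79). For egg-1 the value was -1.11 and called without DMSO replicate 2, and -0.01 without DMSO replicate 1. The partners of egg-3, egg-4 and egg-5, are read only by probe sets that name both and fell outside the rule; these gave -0.08 and -0.16. The gene egg-6 shares the prefix but encodes a leucine-rich repeat protein of epithelia, and had -0.50 (5.69 and 5.73 with DMSO, 4.98 and 5.43 with RIF).

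Genes of the eggshell, with which all cpg- genes were counted by prefix, had the median nearest to 0. Of 16, 13 had values below 0 (median -0.23), none was called with 2 at an unadjusted p under 0.05 in limma, and 3 (perm-4, cpg-23 and cpg-8) lay at 0.22 to 1.01. Among those that build chitin and its partners, chs-1, the chitin synthase of the eggshell, read 7.07 and 6.62 with DMSO and 5.62 and 6.20 with RIF. The groups did not overlap, although the difference, -0.93 (standard error 0.29, unadjusted p = 0.0311 from limma), was short of 2-fold. The unadjusted p was 0.126 from the methods' t-test and 0.063 from limma with the replicate number as a block. The difference was -0.71 or -1.16 without DMSO replicate 1 or 2, and -0.64 or -1.22 without RIF replicate 1 or 2. Of the vitelline layer genes, cbd-1, which encodes a chitin-binding protein, had -0.26 from 7.60 and 7.77 to 7.46 and 7.40. The neighbouring genes perm-2 and perm-4, whose proteins act with CBD-1 in that layer, differed in sign. For perm-2 the arrays read 10.55 and 10.57 with DMSO and 10.38 and 10.31 with RIF (-0.21), and for perm-4 10.35 and 10.59 with DMSO and 10.64 and 10.75 with RIF (0.22). Neither interval excluded 0, but both probe sets of perm-2 were below 0 (-0.36 on the second), and all 4 of perm-4 were above it (0.22 to 0.36). No protein-coding gene lies between them in RefSeq's annotation.

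The cpg- genes encode core proteins of chondroitin proteoglycans. Of these, CPG-1 and CPG-2 are known parts of the inner eggshell, while the other cpg- genes were counted here by their prefix alone. The eggshell components cpg-1 and cpg-2 had small differences. The arrays read 9.95 and 9.73 with DMSO and 9.31 and 9.61 with RIF for cpg-1 (-0.38), and 10.15 and 10.19 with DMSO and 9.85 and 10.14 with RIF for cpg-2 (-0.18, interval -0.64 to 0.29). In cpg-3 the replicates were close, 9.30 and 9.12 with DMSO and 8.68 and 8.86 with RIF, which gave -0.43 (interval -0.88 to 0.01). The gene cpg-4 was lower on both of its probe sets, with 5.34 and 5.26 in DMSO and 4.22 and 4.77 in RIF (-0.81, standard error 0.24, unadjusted p = 0.0268 from limma; -0.95 on the second). The lowest value of all 53 genes was that of cpg-9, at -1.21, but its DMSO arrays read 3.32 and 2.04 and its RIF arrays 1.60 and 1.33, within the control range. It missed the threshold (unadjusted p = 0.0611 from limma) and had -1.85 without DMSO replicate 2 and -0.58 without DMSO replicate 1.

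The highest value was that of cpg-8, the only gene with a 2-fold higher mean in RIF. It read 7.22 and 8.42 with DMSO and 8.85 and 8.80 with RIF. Both RIF arrays were above both DMSO arrays, close to each other, and DMSO replicate 1 stood alone below (1.01, standard error 0.44, unadjusted p = 0.0818 from limma). All 3 of its probe sets had DMSO replicate 1 lowest and both RIF arrays above both DMSO arrays, with differences of 1.01 to 1.17, and the highest of these came from the probe set without shared probes. The value was 1.61 and called without DMSO replicate 2, and 0.41 without DMSO replicate 1. Of the other cpg- genes, cpg-18, cpg-19 and cpg-22 lay within the control range in both groups, cpg-23 barely above it with RIF (0.31), and cpg-20 and cpg-24 had DMSO arrays more than 1 log2 unit apart.

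The RIF arrays differed from each other in these genes. RIF replicate 1 read lower than RIF replicate 2 for 44 of the 53 genes, and for 48.3% of all genes. Against the DMSO mean, the median of the 53 genes was -0.62 on RIF replicate 1 and -0.23 on RIF replicate 2. All 11 germ granule genes, all 9 maternal RNA-binding genes and all 5 genes of the oocyte surface group, egg-6 included, were lower on RIF replicate 1. Only 8 of 16 eggshell genes were. Still, RIF replicate 2 by itself lay below both DMSO arrays for 32 of the 53 genes (60.4%, against 28.7% of all genes), and RIF replicate 1 for 42 (79.2%, against 29.0%). Without RIF replicate 1 none of the 53 genes was called and 1 had an unadjusted p under 0.05 in limma, with a median of -0.23 and 47 values below 0. Without RIF replicate 2, 6 were called lower with a median of -0.62 and 45 values below 0.

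**Figure D4:**
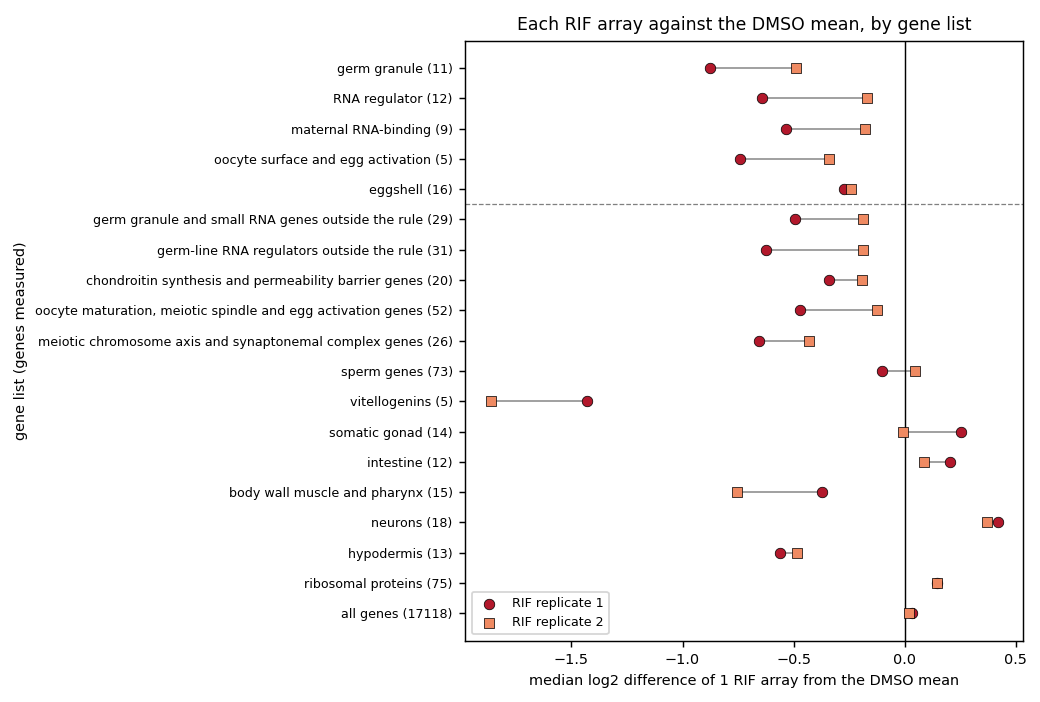
Median log2 difference of each RIF array from the DMSO mean (x axis), for the role groups of the 53 genes (above the dashed line), other gene lists and all genes (y axis, with the number of genes measured). Germ granule genes stand at -0.87 and -0.49 on the RIF arrays, vitellogenins at -1.43 and -1.86 and neuronal genes at 0.42 and 0.37.

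Genes of the germ line outside the rule, other than sperm genes, mostly lay on the same side. Of 29 further germ granule and small RNA genes, 25 had values below 0 (median -0.33), 26 were lower on RIF replicate 1 than on RIF replicate 2, and hrde-1, a nuclear Argonaute of the germ line, fell (5.87 and 4.66 with DMSO, 3.78 and 4.11 with RIF, -1.32). Of 31 further RNA regulators 28 were below 0 (median -0.43), of 52 genes of oocyte maturation, spindle and egg activation 40 were (median -0.29), and of 20 genes of chondroitin synthesis and the permeability barrier 15 were (median -0.35). In these 3 lists none was called in either direction by limma. An unadjusted p under 0.05 in limma was reached by 4 of 31, 2 of 52 and 5 of 20 genes, against 14.6% of genes above the controls. All 26 genes of the meiotic chromosome axis and synaptonemal complex were below 0 (median -0.56), and syp-3 fell (-1.06). Of the 26, 9 had an unadjusted p under 0.05 in limma, against 14.6% of genes above the controls. Both RIF arrays read below both DMSO arrays for 19 of them (73.1%), against 21.6% of genes above the controls. In the lists above, this share was 48.3% for germ granule and small RNA genes and 50.0% for chondroitin and barrier genes. It was 30.8% for genes of oocyte maturation, spindle and egg activation and 29.0% for RNA regulators. Of the 73 sperm genes only 42 lay above the foreign controls. Their median over all 73 was -0.06, with none called and 1 at an unadjusted p under 0.05 in limma. The 14 genes of the somatic gonad had a median of 0.10.

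Lower values were not limited to the germ line. Muscle genes had a median of -0.56, with 5 of 15 called lower, and hypodermal genes one of -0.46, with 2 of 13 called lower. There, unlike in the germ line, RIF replicate 1 was the lower array in only 3 of 15 and 3 of 13 genes. Neuronal genes had a median of 0.36. Both RIF arrays read above both DMSO arrays for 12 of the 18, against 22.2% of genes above the controls. The 75 ribosomal protein genes had a median of 0.15. Intestinal genes other than the vitellogenins had 0.16, with 1 called higher and 1 lower. The 5 vitellogenin genes, which are also expressed in the intestine, had a median of -1.72, with 3 called lower. The part of these tissues in the values of the 53 genes was not tested.

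Probe sets of the same gene were a second reading of the same RNA. Of the 53 genes 23 have more than 1 probe set of their own, and in 20 of them all had the same sign, the exceptions being gld-2, mex-3 and puf-9. Over all 84 probe sets 70 were below 0. Some of these name 1 gene but are of the kind that can share probes with other transcripts. Without that kind, 34 of the 53 genes were left, with 28 below 0 and a median of -0.38. Of these 34, 2 were called lower, ifet-1 and pgl-2. Yet in 19 of the 23 genes, DMSO replicate 2 read above DMSO replicate 1 on one probe set and below it on another. The widest cases were mex-5, with 7.97 and 8.06 on one probe set and 6.02 and 3.73 on the other, and cgh-1, with 6.72 and 6.97 against 5.55 and 3.40. Only car-1 and ifet-1 had probe sets on both sides of the threshold. DMSO replicate 2 was also the array with the lowest 5′ minus 3′ difference (-2.16), and its part in these gaps was not tested. The DMSO arrays differed by more than 0.5 in 21 of the 53 genes, with replicate 1 above in 10 and replicate 2 above in 11. Leaving out DMSO replicate 1 gave a median of -0.35 with 45 of the 53 genes below 0. Leaving out DMSO replicate 2 gave one of -0.45 with only 39 of the 53 below 0, as against 46 with all arrays.

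**Figure D5:**
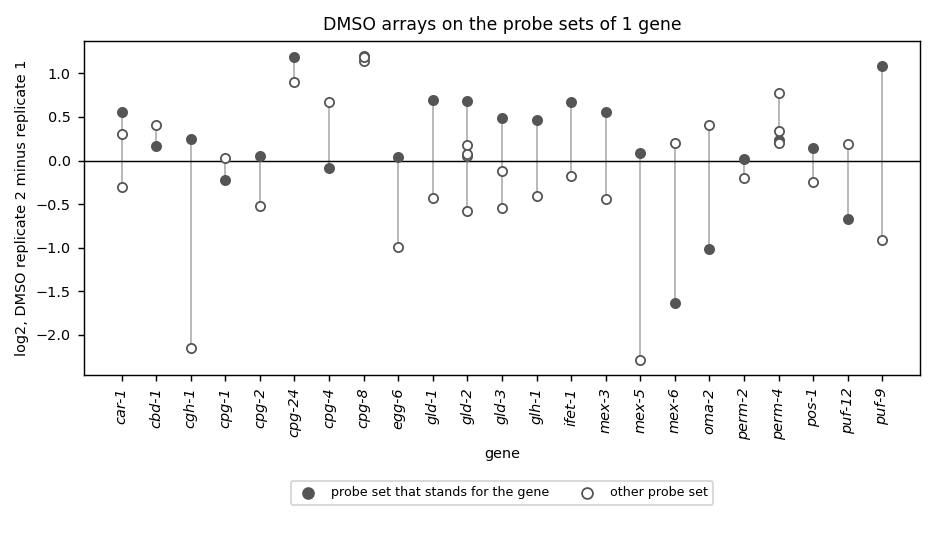
Log2 value on DMSO replicate 2 minus that on DMSO replicate 1 (y axis) for every probe set of the 23 genes with more than 1 (x axis), with filled points for the probe set that stands for the gene and open points for the others. Points of the same gene lie on both sides of 0 in 19 of the 23 genes.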

How the data were processed

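Whole-worm RNA was hybridized to 4 Affymetrix arrays, 2 for DMSO and 2 for RIF. The deposited table holds log2 values per probe set, made by the authors with RMA in Affymetrix Expression Console according to the processing notes, and the methods name Genespring GX. The processing notes give no version. RMA normalizes between arrays, so the values are relative to each array's whole distribution. Of 22625 probe sets, 77 controls were left out. Of the rest, 20766 name 1 gene in the platform annotation, 887 several and 895 none. All 53 symbols were found in RefSeq (WBcel235). The difference RIF minus DMSO was fitted with limma 3.58.1 in R 4.3.3 (lmFit, eBayes without trend, two-sided, Benjamini-Hochberg over 22548 probe sets), with all 4 arrays and no block, after a test on simulated data. The range of 8 foreign control probe sets was used as the detection limit. The number of arrays limits the precision. The p-values weigh a difference against the spread between 2 samples per group, labelled as independent biological replicates. In limma that spread is drawn towards a value shared over all 22548 probe sets, with a prior of 2.11 degrees of freedom. Named were the genes past the threshold, those with the largest differences or the highest means, the extremes of each role group, genes with probe sets of opposite sign, close paralogs and, in other lists, up to 4 called genes. Further genes are named to account for the members. Genes, lists and tests were chosen with earlier results of these data known. Alternatives covered the test, prior, block, omitted arrays, normalization, centring, filter, probe sets and thresholds.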

Additional observations from a re-analysis of the deposited data

How the results depend on the processing

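The median difference of the 53 genes was -0.40 as reported and below 0 under every alternative that recomputed it. Its size depended on the RIF arrays, with -0.23 without RIF replicate 1 and -0.62 without RIF replicate 2. Centring moves every gene alike. With ribosomal centring the median was -0.56 and 47 of the 53 genes were below 0, but so were 69.5% of all genes, whose median was then -0.13. With median centring 54.3% of all genes were. The count of genes called lower, 3 as reported, was less stable. It was 0 with the methods' t-test, 5 with median centring, 6 with ribosomal centring, 7 at a 1.5-fold threshold and 0 at an adjusted p under 0.05, and ran from 0 to 6 when 1 array was left out. The count called higher was 0 as reported, 1 with a trended and robust prior and 0 to 1 when 1 array was left out. The cause was not tested. With the replicate number as a block, 3 genes were called lower (cpg-9, glh-4 and ifet-1) and none higher, with a median of -0.40. The labels do not say that equal numbers share a batch, and deviations of same-numbered arrays correlated at 0.10 over 22548 probe sets. Several small differences turned when 1 array was left out, with ranges of -0.26 to 0.30 for mex-3, -1.26 to 0.37 for mex-6, -0.86 to 0.15 for oma-2, -0.82 to 0.058 for puf-3, -0.14 to 0.94 for puf-9 and -0.55 to 0.0016 for car-1. For mex-3 the value was -0.036 with median centring and -0.14 with ribosomal centring, and for puf-9 it was -0.026 with the mean of its probe sets. With 2 arrays a group, a difference of the median size lies within the 95% interval of a typical gene.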
